A study of Homo sapiens with 54 samples.

Results

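The neutrophil-attracting CXC chemokines CXCL8, CXCL1, CXCL2, CXCL3, CXCL5 and CXCL6 were followed across 9 treatments and 3 times in HT-29 cells. The 6 genes were taken by symbol, with every probe set that the platform annotation gives to 1 of these symbols alone, which made 9 of the 19065 probe sets that carry a single symbol. After a filter on low signal, 6 probe sets of 5 of these genes remained, out of 8105 genes measured in all, and none of the 3 probe sets of CXCL5 passed. The filter asked for a mean signal of 138.9 in at least 1 group.

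HT-29 is a colon adenocarcinoma line of epithelial origin, and every culture, the untreated ones included, had received 200 U/ml interferon-gamma for 24 h before it was stimulated. The stimuli were the cytokine TNF (tumour necrosis factor), the growth factor EGF (epidermal growth factor) and insulin, alone or in pairs. Cells received 100 ng/ml TNF combined with 100 ng/ml EGF, combined with 500 ng/ml insulin, or as the only factor. Others received 5 ng/ml TNF combined with 1 ng/ml EGF, combined with 5 ng/ml insulin, or as the only factor. The remaining cultures had 100 ng/ml EGF, 500 ng/ml insulin, or no further factor, and the last are called untreated below. RNA was taken after 4, 8 and 16 h from 2 biological replicates of each treatment, 54 arrays in 27 groups, so that each treatment had 6 arrays. A single cell line was used, and all comparisons are between cells that share the interferon-gamma priming.

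CXC chemokines are small secreted proteins that direct the migration of leukocytes. Those with a glutamate-leucine-arginine sequence before the first cysteines, as in these 6, bind the receptors CXCR1 and CXCR2 on neutrophils: CXCL8 and CXCL6 bind both, while CXCL1, CXCL2, CXCL3 and CXCL5 act mainly through CXCR2. Epithelial cells of the gut release them when inflammatory cytokines or bacterial products reach them, and TNF induces their genes through the transcription factor NF-kB, with further control at the level of mRNA decay.

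The 6 genes lie together on chromosome 4, in the order CXCL8, CXCL6, PF4V1, CXCL1, PF4, PPBP, CXCL5, CXCL3 and CXCL2, so that 9 protein-coding genes fill 358.6 kb of the build GRCh38.p14. Their proximal promoters are shown because the members were measured under a cytokine that acts through NF-kB, and because they share a stretch of sequence that the choice of genes did not use. The 130 bases before the annotated start of each gene are given 5′ to 3′ on the gene's own strand, from RefSeq on GRCh38.p14. The string GGAATTTCC, a form of the NF-kB motif, is in capitals.
CXCL8, chr4:73740439-73740568, plus strand: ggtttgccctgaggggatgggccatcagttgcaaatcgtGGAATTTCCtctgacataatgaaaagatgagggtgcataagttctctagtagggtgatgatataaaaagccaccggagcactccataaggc
CXCL1, chr4:73869263-73869392, plus strand: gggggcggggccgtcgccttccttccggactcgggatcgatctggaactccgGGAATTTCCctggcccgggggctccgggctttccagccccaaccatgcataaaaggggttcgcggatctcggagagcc
CXCL2, chr4:74099196-74099325, minus strand: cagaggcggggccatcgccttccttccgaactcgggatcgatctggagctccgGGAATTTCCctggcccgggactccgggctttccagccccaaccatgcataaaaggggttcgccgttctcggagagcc
CXCL3, chr4:74038690-74038819, minus strand: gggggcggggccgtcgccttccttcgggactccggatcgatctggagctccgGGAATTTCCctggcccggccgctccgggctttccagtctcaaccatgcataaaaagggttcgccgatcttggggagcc
CXCL5, chr4:73998678-73998807, minus strand: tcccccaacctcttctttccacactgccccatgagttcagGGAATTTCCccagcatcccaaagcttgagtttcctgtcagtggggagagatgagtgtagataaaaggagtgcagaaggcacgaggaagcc
CXCL6, chr4:73836548-73836677, plus strand: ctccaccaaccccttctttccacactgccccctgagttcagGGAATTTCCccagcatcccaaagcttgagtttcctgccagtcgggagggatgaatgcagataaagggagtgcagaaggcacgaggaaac

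The motif GGAATTTCC stood in all 6 promoters, in each case on the strand of the gene. It occupied the bases from 91 to 83 before the start in CXCL8, from 78 to 70 in CXCL1 and CXCL3, from 77 to 69 in CXCL2, from 90 to 82 in CXCL5 and from 89 to 81 in CXCL6. Of the 35116 promoters in the table, 145 (0.413%) held it on either strand within 250 bases before the start. The string leaves no base free, so this is the share of that exact string and not of NF-kB motifs in general. As the string searched is a form that the members share, the comparison is no test of enrichment. The other motifs searched on both strands in these 250 bases were present in fewer members, and none overlapped GGAATTTCC. The AP-1 motif TGANTCA was present in CXCL8 alone (6.57% of all promoters), the C/EBP motif TTGCNNAA in CXCL2 alone (9.05%) and TATAAA in CXCL8 alone (10.7%), whereas the Sp1 motif GGGCGG stood in CXCL1, CXCL3 and CXCL6 (42.6%). These matches describe letters and not occupied sites. They also miss any site that departs from the string searched. In CXCL8 the stretch ttgcaaat, shortly before GGAATTTCC, differs from the C/EBP string only in its last base and was not counted. Over the 250 bases CXCL5 and CXCL6 were 85.3% identical, CXCL1 and CXCL3 81.4%, CXCL2 and CXCL3 73.3%, and CXCL1 and CXCL2 70.4%, while CXCL8 had 42.0% to 45.4% identity with the other members.

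Signals are linear MAS5 signals on arrays that all had a trimmed mean of 500.2. They can be compared between samples for 1 probe set but not between probe sets. Over the 54 arrays CXCL8 ranged from 266.7 to 15681 (probe set 202859_x_at, median 7309), and its second probe set, 211506_s_at, from 32.1 to 7303. CXCL1 ranged from 210.9 to 4587, CXCL2 from 271.5 to 4066 and CXCL3 from 138.8 to 3483. CXCL6 ranged from 13.0 to 206, and the brightest CXCL5 probe set, 214974_x_at, from 5.1 to 150. Thus CXCL1, CXCL2 and the first CXCL8 probe set read above the level of the filter on every array and CXCL3 at or above it to within 1 unit of signal, whereas CXCL5 and CXCL6 were dim on most. CXCL1, CXCL2 and CXCL3 are close paralogs, as are CXCL5 and CXCL6, and the probe sets whose names hold _x_at (202859_x_at, 209774_x_at for CXCL2 and 214974_x_at for CXCL5) may share signal with related transcripts, so the split of signal between paralogs is uncertain.

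The 54 arrays had median signals from 110.9 to 168, and log2 signals of the replicates of a group correlated across probe sets at 0.945 to 0.977. The cells carried their epithelial label: 7 of 8 epithelial markers passed the filter, among them EPCAM at 4865 to 10468, while CDX2 stayed below it at 5.6 to 23.4. Of the 6 leukocyte markers with a probe set 4 passed, all at low signal. Their summed signal was 430.6 to 899.7 (median 623) in the 18 arrays with 100 ng/ml TNF, against 335.5 to 732.9 (median 502) in the 18 arrays without TNF. With 100 ng/ml TNF against untreated cells, ITGAM rose by 1.20 on the log2 scale (adjusted p = 1.33e-07) and CD14 fell by 0.66 (adjusted p = 0.024), and PTPRC, the common leukocyte antigen, stayed below the filter at 3.1 to 57.7. The summed signal of 5 endothelial and fibroblast markers was 351 to 1016 with 100 ng/ml TNF, against 538 to 1006 without TNF. The log2 of the 3′ over the 5′ signal of the ACTB transcript, a measure of RNA and labelling quality, had a median of 0.02 over all arrays. It was highest at 1.19 in replicate 2 of 100 ng/ml TNF at 8 h and 0.98 in replicate 2 of insulin at 8 h. On these 2 arrays the second CXCL8 probe set read 2763 and 32, against 5915 and 191 in the replicate 1 arrays of the same groups. The ACTB ratio was higher in replicate 2 than in replicate 1 of most groups, and of every group at 8 h. With 5 ng/ml TNF at 16 h, for example, it was 0.43 in replicate 2, against 0.05 in replicate 1. With 100 ng/ml TNF and insulin at 16 h replicate 1 was the higher, at 0.63 against 0.35.

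In the following, a difference between treatments is computed on the scale log2(signal + 12.49) and averaged over the 3 times, with its standard error (SE), from 6 arrays of either treatment. The p given is that of limma's moderated F test over the 3 times jointly, adjusted by Benjamini-Hochberg over 13422 probe sets, and a gene passed at an adjusted p under 0.05. A mean can therefore have a 95% interval that excludes 0 while the joint test does not pass. As bulk RNA was measured, more cells making a transcript and more transcript per cell cannot be told apart.

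TNF, given as 100 ng/ml, raised all 5 chemokines that passed the filter, CXCL8 by the largest fold. For CXCL8 the signals were 10275 and 10327 at 4 h, 12132 and 15062 at 8 h and 10253 and 14717 at 16 h with 100 ng/ml TNF, against 333 and 565 at 4 h, 267 and 339 at 8 h and 388 and 340 at 16 h in untreated cells. Every TNF array was far above every untreated array, with no overlap at any time. The difference was 5.00 ± 0.19 (SE), a 32.0-fold change (limma, adjusted p = 2.12e-19), and the second CXCL8 probe set gave 4.93 ± 0.24 (limma, adjusted p = 3e-16). Of the 8105 genes, 7.29% were called higher in this comparison, and the median difference over all of them was -0.09. CXCL6 passed the filter only through its level in cells with 100 ng/ml TNF at 8 h, so its place among the called genes was partly set by the filter; without it the count was 4 of 4.

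CXCL1, which was first known as a melanoma growth-stimulating factor and acts through CXCR2, read 3756 and 3401 at 4 h, 3497 and 4178 at 8 h and 1861 and 2050 at 16 h with 100 ng/ml TNF, against 358 and 434, 242 and 228, and 359 and 336 in untreated cells at the same times. The TNF groups stood apart at every time, and the 16 h pair was the lowest of the 3. CXCL1 rose by 3.18 ± 0.14, or 9.08-fold (limma, adjusted p = 9.59e-18). CXCL2, a close relative of CXCL1 with the same receptor, read 3533 and 3811, 3068 and 3606, and 1392 and 1384 with TNF, against 477 and 522, 274 and 379, and 424 and 458 in untreated cells. The pattern was that of CXCL1, with a still lower 16 h pair relative to the earlier times, and CXCL2 rose by 2.60 ± 0.11, or 6.05-fold (limma, adjusted p = 1.97e-18).

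CXCL3, the third of these paralogs, read 2123 and 2494 at 4 h, 2525 and 2117 at 8 h and 1118 and 1047 at 16 h with 100 ng/ml TNF, against 181 and 176, 214 and 265, and 277 and 347 in untreated cells. Its groups did not overlap either, but they drew closer at 16 h from both sides, with lower TNF arrays and higher untreated ones. CXCL3 rose by 2.86 ± 0.14, or 7.25-fold (limma, adjusted p = 7.54e-17). CXCL6, a ligand of both receptors, read 108 and 164, 121 and 206, and 63 and 100 with TNF, against 55 and 26, 28 and 37, and 38 and 47 in untreated cells. The TNF arrays were above the untreated ones at each time but stayed close to the level of the filter. The difference was 1.40 ± 0.27, or 2.63-fold (limma, adjusted p = 0.00117).

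CXCL5, which acts through CXCR2 and is made mainly by epithelial cells, was below the filter in all 27 groups. Its brightest probe set read 69 and 57 at 4 h, 91 and 85 at 8 h and 44 and 50 at 16 h with 100 ng/ml TNF, against 5 and 20, 19 and 42, and 29 and 39 in untreated cells. All 6 TNF arrays read above all 6 untreated arrays, though at dim signals. In a fit without the filter this probe set differed by 1.10 (adjusted p = 0.00616), and the other CXCL5 probe sets by 0.26 for 207852_at (adjusted p = 0.966) and 0.40 for 215101_s_at (adjusted p = 0.241). The CXCL5 and CXCL6 transcripts are alike, and how far the probe set of 1 gene reads the other was not tested.

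**Figure D1:**
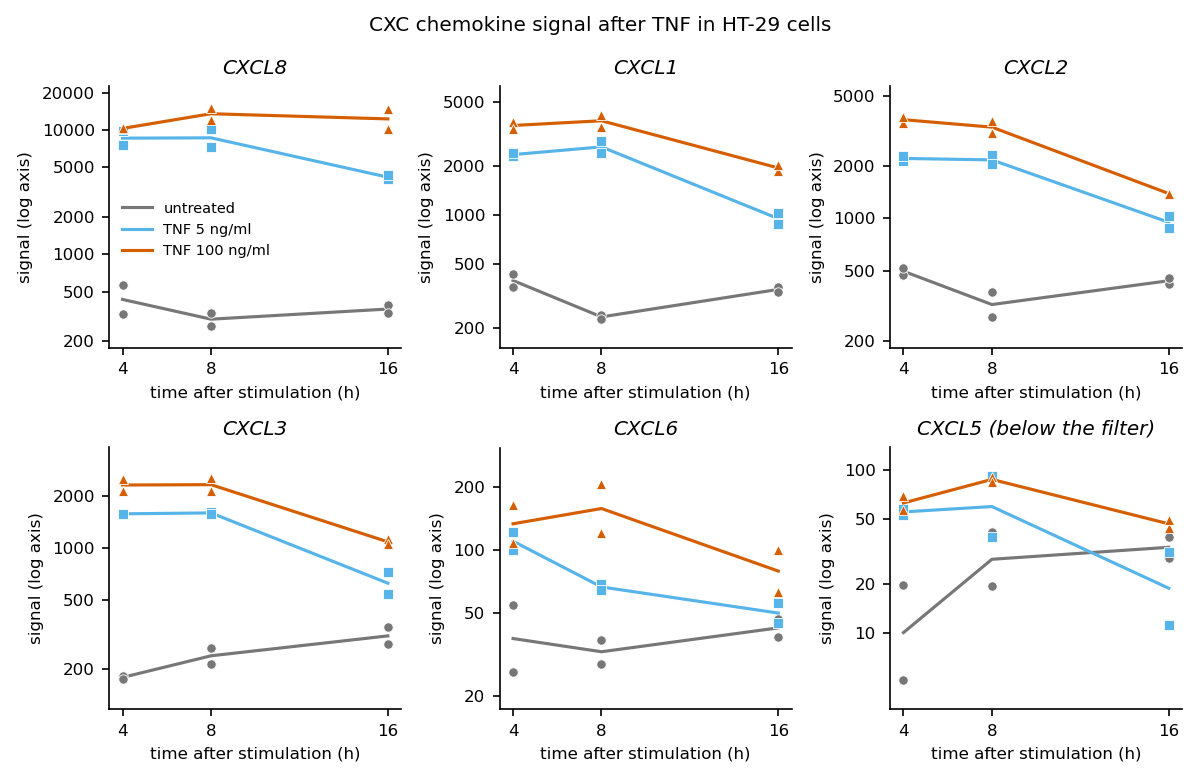
MAS5 signal (log axis) of the 6 chemokines against time after stimulation in h, for untreated cells (grey circles) and TNF at 5 (blue squares) and 100 ng/ml (orange triangles). Each point is an array, each line joins the geometric means of 2 arrays, and the vertical scale differs between panels; CXCL5 is drawn from 214974_x_at, which was below the filter. The CXCL8 line at 100 ng/ml, drawn from 202859_x_at, stays high at 16 h, with arrays at 10253 and 14717, while the CXCL1, CXCL2 and CXCL3 lines turn down at both doses.

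TNF given as 5 ng/ml also raised CXCL8, CXCL1, CXCL2 and CXCL3, 4 of the 5 measured, where 4.8% of all genes were called higher. CXCL8 signals with 5 ng/ml TNF were 7599 and 9733 at 4 h, 7284 and 10275 at 8 h and 4001 and 4352 at 16 h. All of these were above the untreated range of 266.7 to 564.8, and the 16 h pair was lower than the rest. The difference from untreated cells was 4.18 ± 0.19, or 18.1-fold (limma, adjusted p = 7.74e-17). CXCL1 rose by 2.46 ± 0.14 (adjusted p = 1.17e-14), CXCL2 by 1.97 ± 0.11 (adjusted p = 6.48e-15) and CXCL3 by 2.24 ± 0.14 (adjusted p = 6.61e-14). CXCL6 at 5 ng/ml read 99 and 122, 69 and 64, and 44 and 56, and its difference from untreated cells of 0.76 did not pass (adjusted p = 0.203).

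Between the doses, 100 ng/ml TNF gave higher CXCL8, CXCL1 and CXCL2 than 5 ng/ml TNF, 3 of 5, where 0.703% of all genes were called higher. At 16 h CXCL8 read 10253 and 14717 with 100 ng/ml, against 4001 and 4352 with 5 ng/ml, whereas at 4 h it read 10275 and 10327 with 100 ng/ml, against 7599 and 9733 with 5 ng/ml. In this probe set the doses were closer at 4 h than at 16 h. The mean difference was 0.82 ± 0.19 (limma, adjusted p = 0.0172), with 0.26 at 4 h, 0.64 at 8 h and 1.55 at 16 h. On its second probe set CXCL8 read 6092 and 5472 at 4 h with 100 ng/ml, against 3555 and 2769 with 5 ng/ml, and the 3 differences in order of time measured 0.88, 0.13 and 1.89 (mean 0.97 ± 0.24, adjusted p = 0.0285). At 8 h this probe set read 5915 and 2763 with 100 ng/ml, against 4507 and 3016 with 5 ng/ml. The 2763 came from the array with the highest log2 ACTB end ratio, 1.19, and the part of this in the 8 h difference was not tested. CXCL1 was higher by 0.72 ± 0.14 (adjusted p = 0.0139) and CXCL2 by 0.63 ± 0.11 (adjusted p = 0.00563). For CXCL3 the difference of 0.62 ± 0.14 missed the threshold (adjusted p = 0.0609). It passed in 5 of 12 alternatives (limma, adjusted p 0.0161 to 0.169 over the 12), among them the 8 h arrays of replicate 2 as a block (adjusted p = 0.0405). Leaving out any single array did not bring it under the threshold (adjusted p 0.0619 to 0.262). For CXCL6 the difference was 0.64 ± 0.27 (adjusted p = 0.601).

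With each time tested alone, the dose difference of CXCL8 (adjusted p = 0.013) and that of CXCL1 (1.03, adjusted p = 0.036) passed at 16 h, where 0.296% of all genes were called higher. No chemokine passed at 4 h, where 0.333% of genes did, or at 8 h, where 0.074% did. In limma's unadjusted test of whether the dose difference itself changed with time, a comparison added after the data had been seen, CXCL8 alone of the 5 had a p under 0.05, with a difference larger by 1.29 ± 0.46 at 16 h than at 4 h, but none passed after adjustment (CXCL8 adjusted p = 0.72; 0.123% of all genes passed). The 16 h arrays carried part of the dose calls: CXCL8 missed the threshold without replicate 1 of 5 ng/ml at 16 h (adjusted p = 0.109), without its replicate 2 (0.0867) or without replicate 2 of 100 ng/ml at 16 h (0.215). CXCL1 missed it without replicate 1 of 5 ng/ml (0.0807) or replicate 2 of 100 ng/ml (0.0838) at 16 h, which left CXCL2 as the only chemokine called in those 2 settings.

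Within each treatment the times were then compared. Under 100 ng/ml TNF CXCL1, CXCL2 and CXCL3 were lower at 16 h than at 4 h, by 0.87 for CXCL1 (limma F test over 8 and 16 h, adjusted p = 0.00451), 1.39 for CXCL2 (7.98e-07) and 1.08 for CXCL3 (6.72e-04), where 11.5% of all genes were called lower. CXCL8 did not pass, with a 16 h minus 4 h difference of 0.25 and a 95% interval of -0.41 to 0.91 (adjusted p = 0.657), and neither did its second probe set (-0.61, adjusted p = 0.504). CXCL6 differed by -0.67 (adjusted p = 0.332). The CXCL1 call was lost without replicate 1 of this treatment at 16 h (adjusted p = 0.0819).

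Under 5 ng/ml TNF CXCL8 was among the genes that fell. The 16 h minus 4 h difference was -1.04 for CXCL8 (95% interval -1.70 to -0.38, adjusted p = 0.0236), -1.30 for CXCL1 (3.94e-05), -1.20 for CXCL2 (9.14e-06) and -1.31 for CXCL3 (7.31e-05), so that 4 of 5 were called lower, where 8.44% of all genes were. The second CXCL8 probe set fell by 1.63 (adjusted p = 0.00231). The call of the first probe set was sensitive to single arrays of this treatment: without replicate 1 or 2 at 16 h its adjusted p was 0.191 or 0.128, without replicate 2 at 4 h 0.0628 and without replicate 2 at 8 h 0.058. CXCL6 differed by -0.98 (adjusted p = 0.32).

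The times were also compared within the mixtures, which was added after the data had been seen. With 100 ng/ml TNF and EGF, CXCL1, CXCL2 and CXCL3 passed the joint test with a 16 h level below that at 4 h, as 11.7% of all genes did, and with 100 ng/ml TNF and insulin the same 3 genes passed (11.8% of all genes). The 16 h minus 4 h difference was -1.34 with EGF and -1.37 with insulin for CXCL2, and -1.14 with EGF and -1.16 with insulin for CXCL3. For CXCL1 it was -0.39 with EGF (95% interval -0.89 to 0.10) and -0.40 with insulin (-0.90 to 0.10), and the 16 h contrast alone did not pass (adjusted p = 0.271 with EGF and 0.248 with insulin). CXCL1 stood at 0.61 above its 4 h level at 8 h with EGF and at 0.79 with insulin, so the joint test covers a higher 8 h and a lower 16 h level, not a fall from 4 h alone. CXCL8 was called in neither, with differences of 0.14 and -0.36. With 5 ng/ml TNF and 1 ng/ml EGF CXCL8, CXCL1, CXCL2 and CXCL3 were called lower (10.1% of all genes), CXCL8 by 1.03. With 5 ng/ml TNF and 5 ng/ml insulin CXCL1, CXCL2 and CXCL3 were (8.6% of all genes), and CXCL8 at -0.83 missed the threshold (adjusted p = 0.0588) but passed in 5 of 13 alternatives, its second probe set among them at -1.73 (adjusted p = 0.000228). The second probe set of CXCL8 also fell with 100 ng/ml TNF and insulin, by 1.17 (adjusted p = 0.0104), so the 2 probe sets did not agree there. The log2 ACTB end ratio was 0.63 and 0.35 on the 16 h arrays of this treatment, against -0.35 and 0.04 on its 4 h arrays, and the part of this in the result was not tested. The CXCL8 call with 1 ng/ml EGF was lost without the filter on low signal (adjusted p = 0.0511), without replicate 1 at 16 h (adjusted p = 0.464) or replicate 2 at 4 h (0.0973), and the CXCL1 call with 100 ng/ml TNF and EGF without replicate 2 at 8 h (0.082).

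Counted on arrays, the first CXCL8 probe set had both 16 h arrays below all 4 h and 8 h arrays of the same treatment in 3 of 3 treatments with 5 ng/ml TNF and in 0 of 3 with 100 ng/ml TNF. With 5 ng/ml insulin, for example, it read 8128 and 10051, 6973 and 14027, and 4012 and 6424 at 4, 8 and 16 h, and with 100 ng/ml TNF and EGF 9658 and 10997, 9880 and 15681, and 8957 and 14378. The same split was found for 0.395% of all genes. The rule for this split, and that below for all 6 treatments, follow patterns seen in the members, so these shares are descriptions and no tests. The second CXCL8 probe set did not show it, with both 16 h arrays lowest in 3 of 3 treatments with 5 ng/ml TNF and in 2 of 3 with 100 ng/ml TNF, those with EGF and with insulin. CXCL1, CXCL2 and CXCL3 had both 16 h arrays lowest in all 6 treatments with TNF, as did 5.63% of all genes. CXCL6 did so in 2 of 3 treatments at each dose.

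**Figure D2:**
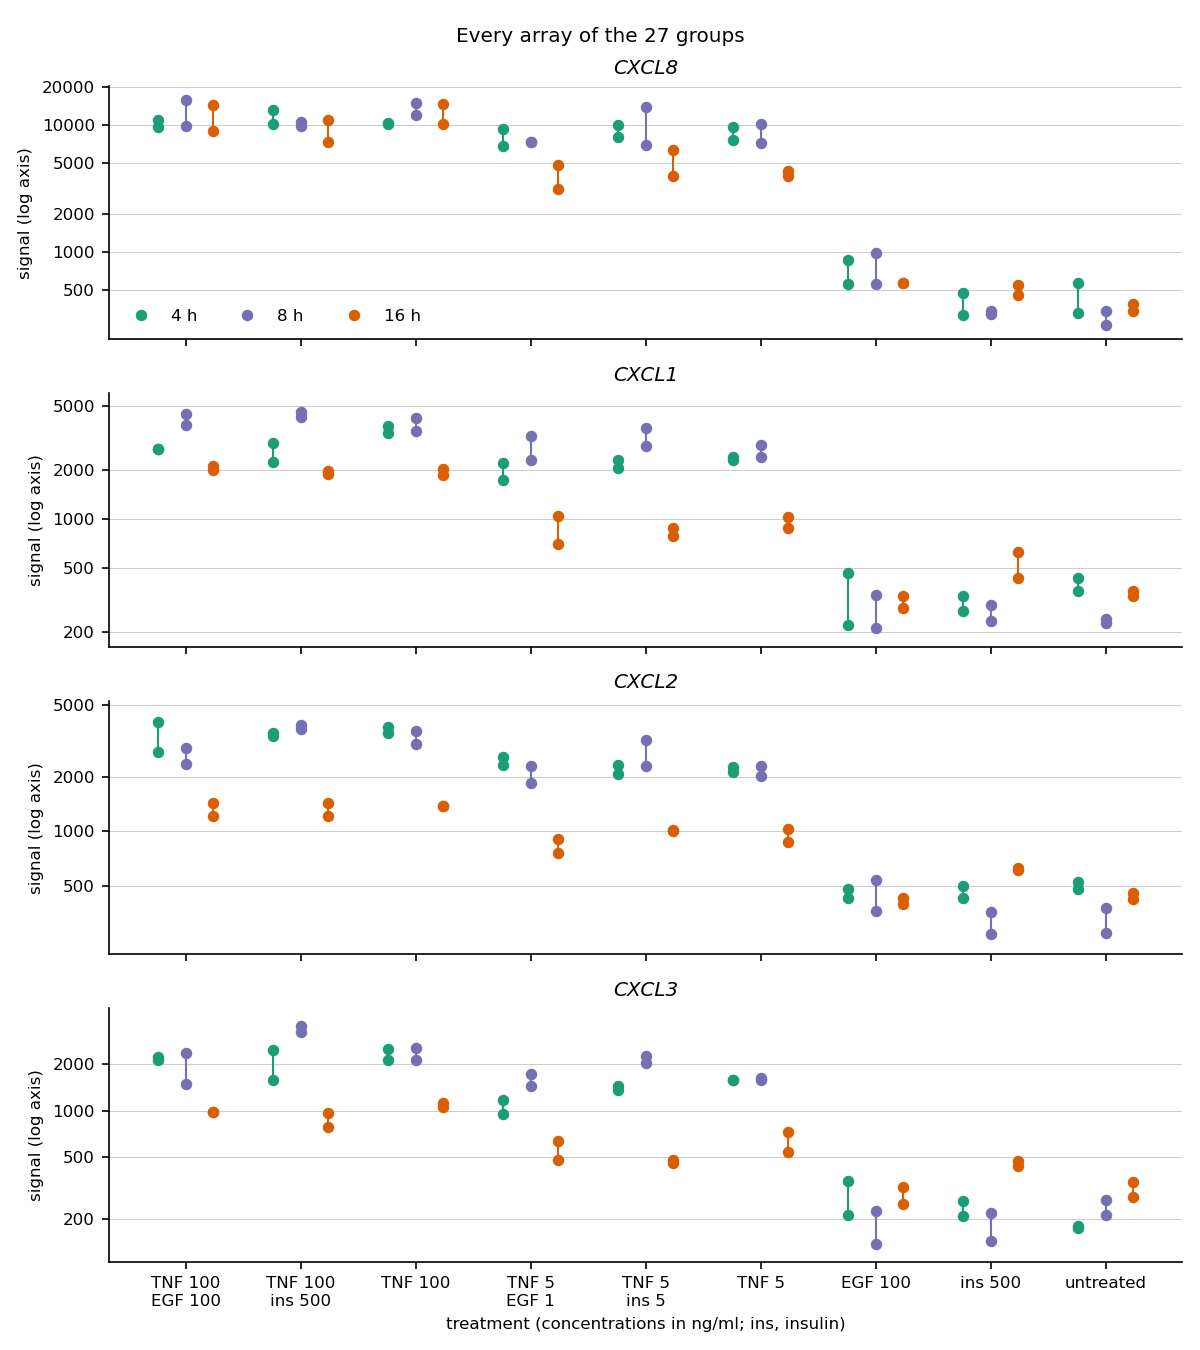
MAS5 signal (log axis) of CXCL8, CXCL1, CXCL2 and CXCL3 on every array, by treatment, with 4 h in green, 8 h in purple and 16 h in orange; a vertical line joins the 2 arrays of a group. All arrays with TNF lie above those without for CXCL8, CXCL1 and CXCL2, while for CXCL3 the lowest with TNF (460.7) lies just under the highest without (476.5), and at TNF 5 ng/ml the 16 h arrays of all 4 genes are the lowest of their treatment.

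In untreated cells no chemokine passed between the times, where 11% of all genes were called in either direction. The 16 h minus 4 h difference was -0.25 for CXCL8, -0.18 for CXCL1 (adjusted p = 0.108), -0.18 for CXCL2 (adjusted p = 0.0723) and 0.76 for CXCL3 (adjusted p = 0.0969), and limma's unadjusted p was under 0.05 for 3 of the 5. CXCL1 and CXCL2 read lowest at 8 h, CXCL1 at 242 and 228 between 358 and 434 at 4 h and 359 and 336 at 16 h. With the 8 h arrays of replicate 2 as a block these 2 genes passed (adjusted p = 0.0153 for CXCL1 and 0.0313 for CXCL2). Both also passed with a replicate block over all times or within each time.

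The difference between 100 ng/ml TNF and untreated cells changed with time for CXCL1, CXCL2 and CXCL3, 3 of 5, where 1.46% of all genes were called with a smaller difference at 16 h than at 4 h. For CXCL3 the log2 difference measured 3.60 at 4 h, 3.21 at 8 h and 1.76 at 16 h, a change of -1.84 ± 0.34 (limma, adjusted p = 0.00158). CXCL2 went 2.85, 3.32 and 1.63 over the same times, a change of -1.22 ± 0.27 (adjusted p = 0.00024). CXCL1, at 3.14, 3.96 and 2.45, changed by -0.69 ± 0.34 (adjusted p = 0.0257), but leaving out any 1 of 7 of its 12 arrays ended this call (adjusted p 0.0594 to 0.117). CXCL8, at 4.53, 5.43 and 5.03, did not pass (0.50 ± 0.46, adjusted p = 0.72). Whether CXCL8 and the other chemokines differ in this change was not tested.

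At 5 ng/ml the difference from untreated cells was likewise smaller at 16 h than at 4 h for 3 of 5, where 0.518% of all genes were called so: CXCL1 changed by -1.13 ± 0.34 (adjusted p = 0.00242), CXCL2 by -1.03 ± 0.27 (adjusted p = 0.0014) and CXCL3 by -2.07 ± 0.34 (adjusted p = 0.000572). CXCL8 changed by -0.79 ± 0.46 and did not pass (adjusted p = 0.445). The comparisons at both doses share the untreated arrays, and that at 5 ng/ml was also added after the data had been seen.

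**Figure D3:**
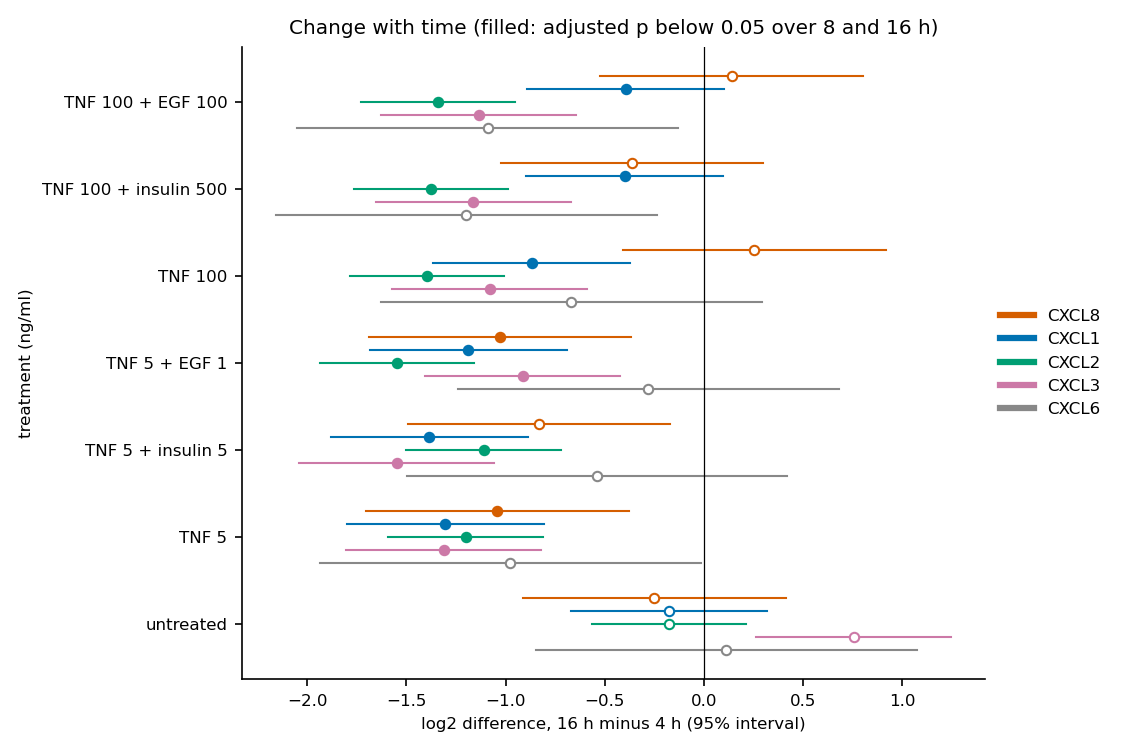
Log2 difference between 16 h and 4 h for 5 chemokines (colours) in the 6 treatments with TNF and in untreated cells; bars are 95% intervals, and filled points passed limma's joint test of 8 and 16 h against 4 h at an adjusted p under 0.05. CXCL8 (orange) lies at 0.25 with 100 ng/ml TNF and at -1.04 with 5 ng/ml TNF, while CXCL2 (green) is between -1.55 and -1.11 in all 6 TNF treatments.

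Averaged over the times, CXCL1, CXCL2 and CXCL3 stayed near their untreated levels with EGF alone, while CXCL8 read higher and the dim CXCL6 lower. CXCL8 signals with 100 ng/ml EGF were 555 and 872 at 4 h, 564 and 977 at 8 h and 569 and 570 at 16 h, against 333 and 565, 267 and 339, and 388 and 340 in untreated cells. The groups overlapped at 4 h and stood apart at 8 and 16 h. The difference was 0.86 ± 0.19, or 1.81-fold, and missed the threshold (limma, adjusted p = 0.0628). With the 8 h arrays of replicate 2 as a block it passed (adjusted p = 0.0129), as it did with a replicate block over all times or within each time. The second CXCL8 probe set gave 0.50 ± 0.24 (adjusted p = 1), with 215 and 261, 255 and 163, and 225 and 102 in EGF cells, against 142 and 223, 162 and 85, and 134 and 97 in untreated cells.

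No chemokine was called with EGF alone, where 0.642% of all genes were, and limma's unadjusted p was under 0.05 for CXCL8 and CXCL3. The differences of CXCL1, CXCL2, CXCL3 and CXCL6 were -0.09, 0.06, 0.02 and -0.39, with 95% intervals of -0.38 to 0.19, -0.16 to 0.29, -0.26 to 0.30 and -0.95 to 0.16. The mean of CXCL3 averaged 0.59 at 4 h, -0.40 at 8 h and -0.12 at 16 h, and that of CXCL6 0.04, -0.43 and -0.79. The CXCL8 call depended on single arrays: it passed without replicate 1 of EGF at 4 h (adjusted p = 0.0477) or at 8 h (0.0354), or without replicate 2 of untreated cells at 4 h (0.033), and its adjusted p reached 0.463 without replicate 2 of EGF at 8 h.

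Insulin alone gave no call among the 5, where 0.271% of all genes were called, and 1 unadjusted limma p under 0.05, that of CXCL3. The differences lay between 0.11 for CXCL1 and CXCL2 and 0.26 for CXCL6. The CXCL8 signals were 319 and 477 at 4 h, 343 and 326 at 8 h and 455 and 550 at 16 h with 500 ng/ml insulin, against 333 and 565, 267 and 339, and 388 and 340 in untreated cells. They overlapped at 4 and 8 h, and the difference was 0.15 (95% interval -0.23 to 0.53).

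Neither growth factor gave a called change when it was added to TNF. With EGF added to 100 ng/ml TNF, 0 of 5 passed, where 0.296% of all genes did, and limma's unadjusted p was under 0.05 for 0 of 5. CXCL8 differed by -0.08 (95% interval -0.46 to 0.30), CXCL1 by -0.07 (-0.36 to 0.21), CXCL2 by -0.18 (-0.41 to 0.04) and CXCL3 by -0.18 (-0.46 to 0.11). CXCL6 read 95 and 77, 100 and 113, and 32 and 36 in the mixture, against 108 and 164, 121 and 206, and 63 and 100 with TNF alone. The mixture lay below TNF alone at each time without overlap, and the difference of -0.70 ± 0.27 did not pass (limma, adjusted p = 1).

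With 500 ng/ml insulin added to 100 ng/ml TNF, 0 of 5 passed, where 0.617% of all genes did, and 0 had an unadjusted limma p under 0.05. CXCL8 read 13294 and 10150, 10620 and 9903, and 7368 and 11052 in the mixture, against 10275 and 10327, 12132 and 15062, and 10253 and 14717 with TNF alone. The groups were apart at 8 h, with the mixture lower, and overlapped at 4 and 16 h, and the difference was -0.22 (95% interval -0.60 to 0.16). The second CXCL8 probe set ran the other way at 8 h, with 6950 and 7303 in the mixture, against 5915 and 2763 with TNF alone, and its groups did not overlap at any time. Its differences were -0.13 at 4 h, 0.82 at 8 h and -0.69 at 16 h, and it did not pass (adjusted p = 0.752). The signal of 2763 came from the array with the highest log2 ACTB end ratio, 1.19, and the part of this in the 8 h difference was not tested. The mean differences of the other chemokines lay between -0.56 for CXCL6 and 0.01 for CXCL2. That of CXCL3, -0.01, averaged -0.24 at 4 h, 0.53 at 8 h and -0.32 at 16 h (joint test, adjusted p = 0.689).

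At the low doses, 1 ng/ml EGF added to 5 ng/ml TNF and 5 ng/ml insulin added to 5 ng/ml TNF each gave 0 of 5, and 0% of all genes were called in either comparison. Unadjusted limma p values under 0.05 were found for 0 of 5 chemokines in each, and for 358 of all 8105 genes with EGF and 170 with insulin. The CXCL8 differences were -0.14 (95% interval -0.52 to 0.24) with EGF and 0.18 (-0.20 to 0.56) with insulin.

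The TNF response itself was present in cells that also had a growth factor. In cells with EGF, 100 ng/ml TNF raised 5 of 5 chemokines, where 6.24% of all genes were called higher: CXCL8 by 4.06, CXCL1 by 3.20, CXCL2 by 2.35, CXCL3 by 2.66 and CXCL6 by 1.09. The CXCL6 call (adjusted p = 0.0113) was lost when the groups were fitted alone (0.0835), without the 8 h arrays of replicate 2 (0.104) and without replicate 1 of EGF at 8 h (0.0601) or replicate 2 of the mixture at 8 h (0.0583). In cells with insulin it raised 4 of 5, where 9.32% of all genes were called higher: CXCL8 by 4.63, CXCL1 by 2.98, CXCL2 by 2.50 and CXCL3 by 2.68, with CXCL6 at 0.58 (adjusted p = 0.274).

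Tests of whether the TNF difference itself depended on the growth factor passed for none of the 5 with EGF, where 0.037% of all genes passed, and for none with insulin, where 0.0123% did. Limma's unadjusted p was under 0.05 for CXCL8 with EGF and for CXCL3 with insulin. The TNF difference of CXCL8 was 4.06 in cells with EGF, against 5.00 in cells without, a change of -0.93 ± 0.26 (95% interval -1.47 to -0.39, adjusted p = 1). The second CXCL8 probe set changed by -0.24 ± 0.34. For CXCL3 with insulin the change was -0.61 at 4 h and 0.92 at 8 h, with a mean of -0.18 over the 3 times.

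**Figure D4:**
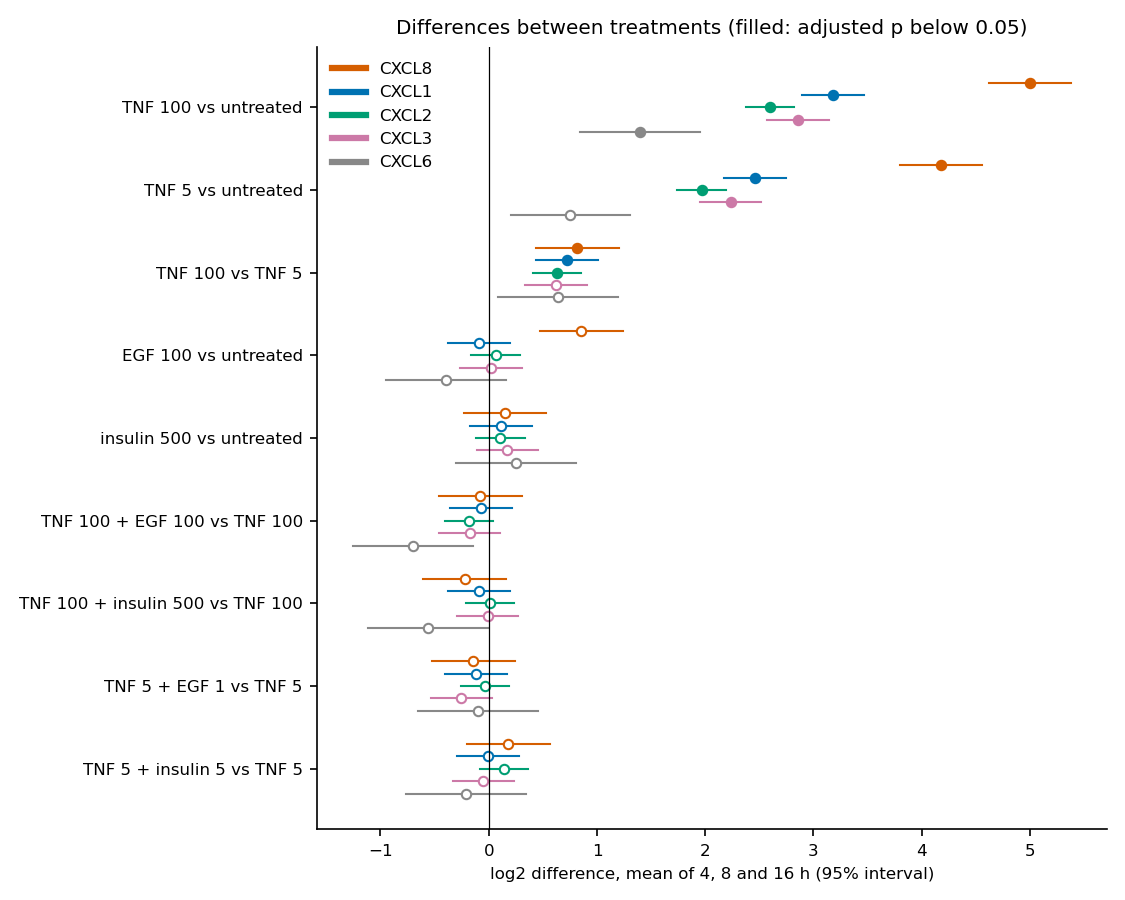
Log2 differences, averaged over 4, 8 and 16 h, for 5 chemokines (colours) in 9 comparisons, the first treatment named minus the second; bars are 95% intervals of the mean, and filled points passed limma's joint test over the 3 times at an adjusted p under 0.05. The differences against untreated cells at both TNF doses lie far to the right, with CXCL8 at 5.00 and 4.18, and the mixtures against TNF alone lie around 0.

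Ranked by group mean, all 18 groups with TNF stood above all 9 groups without it for both CXCL8 probe sets and for CXCL1, CXCL2 and CXCL3. Within that order most neighbours did not differ beyond their spread: the arrays of neighbouring groups overlapped in 23 of 26 cases for CXCL8 and for CXCL1, 21 for CXCL2 and 18 for CXCL3. For CXCL6 they overlapped in 25 of 26, and its groups with and without TNF were mixed in the order.

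The members followed each other over the 27 group means, which share the 2 array sets of each group and the large step between groups with and without TNF. Pearson's r was 0.978 between CXCL1 and CXCL3, 0.976 between CXCL2 and CXCL3 and 0.975 between CXCL1 and CXCL2, and 0.954, 0.925 and 0.912 between CXCL8 and CXCL1, CXCL2 and CXCL3. Over the 18 groups that had TNF it was 0.951 between CXCL1 and CXCL3, 0.947 between CXCL2 and CXCL3 and 0.889 between CXCL1 and CXCL2, and 0.842, 0.717 and 0.749 between CXCL8 and CXCL1, CXCL2 and CXCL3. All 6 values were lower than over the 27 groups.

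Among all other genes, the 5 with the pattern most like that of CXCL8 over the 27 groups were TNIP1 (r = 0.982), NFKBIA (0.978), TNFAIP3 (0.976), TNFAIP2 (0.974) and IFNGR2 (0.965). For CXCL1 they were TNIP1 (0.963) and NFKBIA (0.952), for CXCL2 PI3 (0.949) and ICAM1 (0.939), for CXCL3 CCL20 (0.953) and PTGS2 (0.945), and for CXCL6 TBC1D2B (0.838) and PI3 (0.831). These correlations are descriptions of likeness and carry no test.

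Most measured regulators of NF-kB, AP-1 and C/EBP transcription were higher with TNF. Of 18 such genes 16 were measured, and 15 of them rose and 1 fell with 100 ng/ml TNF against untreated cells, with a median difference of 1.25, against -0.09 over all genes. In this comparison 7.29% of all genes were called higher and 11.3% lower, which is the background of this list and of those that follow. TNIP1 and TNFAIP3, which restrain NF-kB signalling, rose by 2.22 (adjusted p = 1.8e-19) and 3.64 (2.12e-19), and NFKBIA, the inhibitor that holds NF-kB in the cytoplasm, rose by 2.63 (2.95e-18). The NF-kB subunits RELB and RELA rose by 2.30 (1.16e-15) and 1.23 (1.12e-12). The gene that fell was FOS, a subunit of AP-1, by 1.14 (adjusted p = 0.0152). Between the times under 100 ng/ml TNF, 6 of the 16 were higher at 16 h than at 4 h and 1 was lower, with a median of 0.42, where 13% of all genes were called higher and 11.5% lower.

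Of 8 measured regulators of mRNA decay, 3 rose and none fell, with a median of -0.01. They were ZFP36, which binds AU-rich elements and promotes decay, by 0.83 (adjusted p = 3.11e-05), DUSP1, a phosphatase of MAP kinases, by 0.78 (3.86e-04) and ZFP36L1, a relative of ZFP36, by 0.57 (0.0487). Of the receptors and adaptors for the stimuli, 4 of 10 measured rose and 2 fell: the interferon-gamma receptor chains IFNGR2 by 2.16 and IFNGR1 by 1.39, EGFR by 1.02 and TNFRSF1B by 1.37, while IRS1 fell by 0.71 and ERBB3 by 0.40. Their median was 0.20.

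Other epithelial products linked to neutrophils rose in 5 of 8 measured, with a median of 0.98: CCL20, a chemokine for dendritic cells and lymphocytes, by 4.41, the complement component C3 by 3.47, the adhesion molecule ICAM1 by 2.07, the siderophore-binding LCN2 by 1.17 and the cytokine LIF by 0.79. The other CXC chemokines, whose receptors lie mainly on lymphocytes, rose in 3 of 4 measured, CXCL9 by 3.71, CXCL10 by 1.67 and CXCL11 by 1.53, with a median of 1.60. Of the receptors and relatives of the neutrophil-attracting group 1 of 6 passed the filter, the platelet chemokine PF4, with a difference of 0.28 that did not pass the test (adjusted p = 0.954). The receptors CXCR1, at 13.0 to 145.0, and CXCR2, at 2.1 to 36.4, were below the filter in every group.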

How the data were processed

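RNA from HT-29 cells was hybridised to Affymetrix human genome arrays, 1 array per culture. The deposited values are linear intensity (MAS5 signals) made by the authors, MAS5 being named in the submitters' processing notes; no version is given in the sources used here. As each array had the same mean of 500.2 after 2% was trimmed from either end, the values were not scaled again.

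The table held 22283 probe sets, 68 of them controls that were set aside. A pseudocount of 12.49, which is the 10th percentile of the signals, was added before log2 was taken. Probe sets stayed in where the mean of some group was at or above 7.24, the median log2 value (13422 of 22215). The platform table assigns a single symbol to 19065 probe sets, several to 1043 and none to 2107. Each gene is described by its kept probe set of highest mean. One limma model (version 3.58.1, R 4.3.3) held the 54 arrays, with a mean for every group, an intensity trend and 27 residual degrees of freedom; 2 arrays per group limit the precision. Treatments were compared by the moderated F test over the contrasts at 4, 8 and 16 h, signed by their mean. Times were compared by the F test over 8 and 16 h against 4 h, signed by the 16 h contrast. Benjamini-Hochberg adjustment ran over the kept probe sets, with a level of 0.05. The fit was also run on simulated data with independent noise on each array. That setting lacks the correlation between same-numbered arrays described below, so it does not show how the fit behaves under it.

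Replicate numbers come from the sample titles. The correlation of residuals between same-numbered arrays exceeded 0.1 in 36 of 36 pairs of groups at 8 h. It did so in 27 of 36 at 4 h, in 31 of 36 at 16 h and in 218 of 351 over all times. As every pair exceeded it at 8 h alone, the numbers were taken to pair arrays there. Pairing at 4 and 16 h is not excluded. The medians there were 0.20 and 0.21, lower than the 0.43 of the 8 h pairs. The main fit held no replicate block at any time, so its p values ignore such pairing. Alternatives were another pseudocount, no filter, no trend, quantile normalisation, median centring, replicate blocks, the second CXCL8 probe set, fits of the compared groups alone and leaving out arrays. The chemokines, gene lists and comparisons were chosen with earlier results of these data known. The genes named are the 6 chemokines, CXCR1 and CXCR2, the 5 genes most like CXCL8 and 2 most like each other chemokine by Pearson's r over group means, and up to 5 members of each list, those with the lowest adjusted p for 100 ng/ml TNF against untreated cells. Markers, FOS and ERBB3 were named outside this rule after their values were seen. Promoters come from a RefSeq table on GRCh38.p14, in which all 6 genes were found, and were searched with Python 3.11.15; identity was taken from alignments with Biopython 1.88.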

Additional observations from a re-analysis of the deposited data

Results flagged for a closer look

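The change of the TNF difference with time was singled out for CXCL1, CXCL2 and CXCL3, because the difference from untreated cells at 16 h was set against that at 4 h by a test of the change itself. With 100 ng/ml TNF the log2 difference changed between 4 and 16 h by -0.69 for CXCL1 (limma, adjusted p = 0.0257), -1.22 for CXCL2 (adjusted p = 0.00024) and -1.84 for CXCL3 (adjusted p = 0.00158). With 5 ng/ml TNF the change was -1.13 for CXCL1 (adjusted p = 0.00242), -1.03 for CXCL2 (adjusted p = 0.0014) and -2.07 for CXCL3 (adjusted p = 0.000572). For CXCL3 part of the change lies in the untreated cells, whose arrays read 181 and 176 at 4 h and 277 and 347 at 16 h. CXCL8 passed at neither dose, with changes of 0.50 and -0.79, and CXCL6 at neither, with -0.78 and -1.09.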

How the results depend on the processing

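Of the 23 counts of chemokines called, 20 kept within 1.5 times their value under each alternative run. With EGF against untreated cells the count of 0 became 1, CXCL8, under quantile normalisation (adjusted p = 0.013), median centring (0.0179), the replicate block over all times (0.00057), the block within each time (0.000507) and the block at 8 h alone (0.0129), and 0 to 1 without single arrays. Between the times in untreated cells the count of 0 became 2 with the replicate block over all times and with that at 8 h alone, 3 with that within each time, and 1 without the 8 h arrays of replicate 2, and it was 0 to 1 without single arrays. For 100 against 5 ng/ml TNF the count of 3 was 1 to 3 without single arrays. The replicate block changed no other count by over 1.5 times. Among single genes no called direction was reversed. CXCL3 between the TNF doses passed with a pseudocount of 50 (adjusted p = 0.0377) and under quantile normalisation (0.0439). The change of the CXCL1 difference with time at 100 ng/ml was lost under median centring (0.121), without the 8 h arrays of replicate 2 (0.196) and without both arrays of highest ACTB ratio (0.112), and that of CXCL2 at 5 ng/ml when the groups were fitted alone (0.0667). The change of CXCL8 with time under 5 ng/ml TNF with insulin passed under quantile normalisation (0.0277), median centring (0.0409) and the replicate blocks over all times (0.00299) and within each time (0.00507), and the change of its difference from untreated cells at 5 ng/ml with the block within each time (0.046). Causes were not tested. The dim signals of CXCL5 and CXCL6 limit what can be said of them.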
